A study of Mus musculus musculus x M. m. domesticus and Mus musculus musculus x Mus musculus castaneus and Mus musculus domesticus with 42 samples.

Results

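Liver transcript levels of Mus musculus castaneus were compared with those of Mus musculus domesticus, 2 subspecies of the house mouse that were not crossed with each other in the study. The comparison rests on the 4 liver arrays that the labels give as parental castaneus (2 arrays) and parental domesticus (2 arrays), of 42 arrays in the whole series. All mice were males of wild-derived inbred lines, so each subspecies is represented by inbred animals and not by a sample of wild populations, and no line name is given in the sources used here. The castaneus males were 47 days old and the domesticus males 45 days old, so that an effect of 2 days of age and an effect of subspecies cannot be told apart. Liver arrays of 2 Mus musculus musculus males, 47 days old, served as the third subspecies, to show which of the pair lay apart. Liver arrays of 8 male F1 hybrids with musculus, gave a further comparison: their signals do not enter the castaneus minus domesticus difference, but they share in the estimate of its spread. They were castaneus x musculus (mother first, 54 days) and musculus x castaneus (53 days), the castaneus crosses, and domesticus x musculus (50 days) and musculus x domesticus (53 days), the domesticus crosses, with 2 males each. The labels call the replicates separate males. The arrays are Affymetrix 430 2.0 arrays, which measure a transcript with 1 or more probe sets, each a group of short oligonucleotides.

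The liver makes most plasma proteins, synthesises cholesterol and bile acids, and chemically modifies steroids, drugs and plant compounds. Cytochrome P450 enzymes oxidise these compounds, and sulfotransferases, UDP-glucuronosyltransferases and glutathione S-transferases then attach groups that make them easier to excrete. Many of these enzymes belong to clusters of closely related genes, and in rodents the level of many depends on sex through the daily pattern of growth hormone release. Hepatocytes also respond to interferon, with genes that act against viruses, and to inflammation, with acute phase proteins.

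The signals of the 14 liver arrays had been scaled to a shared level before deposit. Replicates of castaneus correlated at r = 0.9575 and those of domesticus at r = 0.9582 across probe sets, beside 0.9576 to 0.9678 in the F1 and 0.9604 in musculus, so that castaneus had the lowest value of the 7 genotypes by a small margin. The Y-linked genes Eif2s3y (1598 to 2708) and Uty (530 to 878) had signals on all 4 arrays. The hepatocyte markers, 11 measured genes such as Alb and Ttr, summed to 277463 and 291123 on the castaneus arrays and to 258166 and 274483 on the domesticus arrays. Domesticus replicate 1 stood apart for a group of hormone- and clock-regulated transcripts. The metallothionein Mt1 had a signal of 23137 there against 1742 in domesticus replicate 2, Mt2 had 22781 against 1130, and the clock output gene Dbp had 13786 against 2125. In castaneus these genes had 1822 and 2947 (Mt1), 3150 and 3051 (Mt2), and 467 and 1359 (Dbp).

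Values below are signals on a linear scale, and a log2 difference is castaneus minus domesticus on the scale log2(signal + 31), which understates the difference of dim transcripts. A probe set is called where its adjusted p in limma is under 0.05 over 27022 probe sets. Of these, 1655 (6.12%) were called: 772 (2.86%) were higher and 883 (3.27%) lower in castaneus. The called difference exceeded 1 on the log2 scale in 1256 probe sets (4.65%), 2 in 335 (1.24%) and 3 in 105 (0.389%). The castaneus and domesticus arrays did not overlap for 12099 probe sets (44.8%), among them all 1655 called. With 1 probe set per gene, the one with the highest mean in liver, 459 of 13421 genes (3.42%) were higher and 409 (3.05%) lower, and the median difference over all genes was 0.017. Removing 1 array lowered the count to 1067 without castaneus replicate 1 (430 higher, 637 lower), 982 without castaneus replicate 2 (397 and 585), 975 without domesticus replicate 1 (490 and 485) and 1180 without domesticus replicate 2 (572 and 608). The spread was estimated over all 14 liver arrays, and fits of the 6 parental arrays or of the 4 castaneus and domesticus arrays alone called 1002 and 742. With the mean of a gene's probe sets as 1 value, 882 genes were called.

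**Figure D1:**
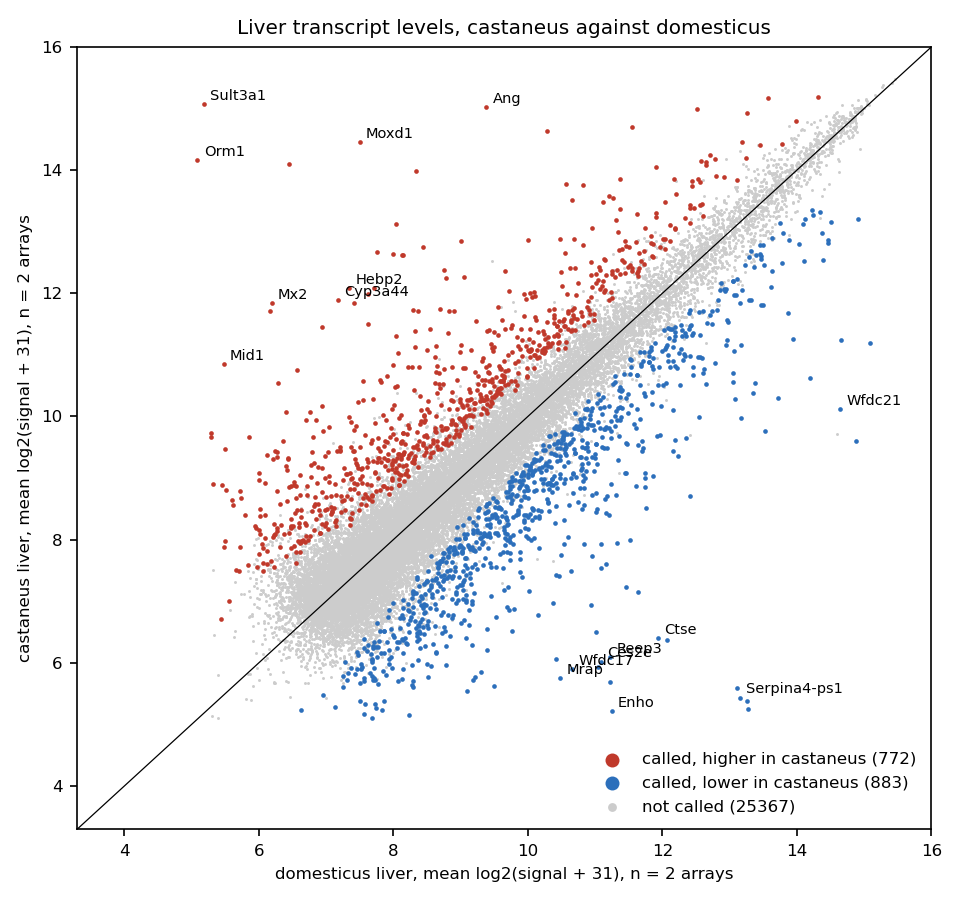
Mean log2(signal + 31) of each tested probe set in castaneus liver (vertical axis) against domesticus liver (horizontal axis), n = 2 arrays each, with the line of equal level. The 772 probe sets called higher in castaneus lie above the line and the 883 called lower below it. Sult3a1, Orm1, Moxd1, Enho and the other labelled genes have the largest differences among the named genes, not among all probe sets plotted.

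The largest differences toward castaneus were of Sult3a1 and Orm1, both bright in castaneus liver and at the bottom of the scale in domesticus. Sult3a1, a sulfotransferase, had signals of 32423 and 36923 in castaneus, against 10 and 1 in domesticus and 240 and 46 in musculus, a log2 difference of 9.90 ± 0.42 (SE, n = 2 each; adjusted p = 3.72e-08, limma). Orm1, which encodes the plasma acute phase protein orosomucoid 1, had 19060 and 17561 in castaneus, against 3 on both domesticus arrays and 535 and 842 in musculus, a difference of 9.07 ± 0.36. For both genes the castaneus arrays lay far above all domesticus and musculus arrays. Moxd1, a monooxygenase of the copper-dependent family, had 22580 and 22183 in castaneus, 368 and 51 in domesticus and 10 and 9 in musculus, a difference of 6.95 ± 0.94.

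Ang, which encodes the secreted ribonuclease angiogenin, had 30519 and 36057 in castaneus, against 631 and 642 in domesticus, and 3535 and 808 in musculus. Its other 2 probe sets were also called higher, with differences of 3.15 and 1.40, so the size of the difference depended on the probe set. Aldh1a2, a retinaldehyde dehydrogenase that makes retinoic acid, had 848 and 718 in castaneus, against 7 and 9 in domesticus and 21 and 9 in musculus. Hebp2, a heme-binding protein, had 4390 and 4227 in castaneus, 147 and 118 in domesticus and 515 and 593 in musculus. In each of these genes the 2 castaneus males were close to each other and did not overlap with the other subspecies.

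Among the largest transcripts lower in castaneus was Enho, which encodes the secreted peptide adropin. It had a signal of 6 on both castaneus arrays, against 1944 and 2951 in domesticus, and musculus was as low as castaneus, at 12 and 11. The difference was -6.04 ± 0.31 (adjusted p = 1.51e-07, limma), a further probe set gave -5.70, and another, dimmer one was not called (-0.47). Mrap, the accessory protein of melanocortin receptors, had 25 and 21 in castaneus, 1177 and 1667 in domesticus and 3144 and 3481 in musculus. Inmt, an N-methyltransferase of indoles, had 816 and 866 in castaneus, 18012 and 7642 in domesticus and 5018 and 5568 in musculus. Abca3, a lipid transporter, had 42 and 246 in castaneus, 3183 and 3102 in domesticus and 1895 and 1578 in musculus. Its other probe sets gave -2.85 (called) and -0.08 (dimmer in domesticus, not called). These transcripts were low in both castaneus males, and only for Enho did musculus share the low level.

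Ctse, the protease cathepsin E, had 33 and 80 in castaneus, 3062 and 4951 in domesticus and 501 and 942 in musculus, and its other probe set was not called (0.08). Wfdc17, a small secreted protein of the whey acidic protein family, had 29 and 28 in castaneus, 1426 and 1754 in domesticus and 468 and 452 in musculus. Wfdc21, of the same family, had 5096 and 211 in castaneus, 26348 and 24741 in domesticus and 913 and 649 in musculus. The 2 castaneus males were far apart for Wfdc21, and its call was lost without either domesticus replicate. Sec14l4, a lipid-binding protein, had 336 and 145 in castaneus, 2822 and 3013 in domesticus and 205 and 218 in musculus. Rdh16f2, a retinol dehydrogenase family member, had 455 and 329 in castaneus, 4573 and 6396 in domesticus and 5013 and 3166 in musculus.

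For some of the largest differences, other probe sets of the gene gave another answer. The probe set of Serpina4-ps1 with the largest difference had 5 and 21 in castaneus against 10015 and 8259 in domesticus (-7.72), while 2 others were called higher in castaneus, by 1.60 and 2.49, with signals of 36296 and 37305 against 15419 and 9469 for the brighter. Mid1 had 1729 and 1908 in castaneus and 15 and 12 in domesticus at 1 probe set (5.38), and its other 2 differed by 0.46 and 0.03, neither called. Reep3, with 62 and 19 in castaneus against 2484 and 2249 in domesticus, had 1 more probe set called lower (-5.11) and 3 that were not called, between -0.19 and 0.39. Deptor (-4.52) had 4 further probe sets, between -0.10 and 0.86, none of them called. Wdfy1 was called higher at 1 probe set (4.44) and lower at 2 others (-1.48 and -0.64).

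Such disagreement was common. In 5577 genes with 2 or more tested probe sets, 754 had at least 1 call. All probe sets were called the same way in 66 of the 754 (8.75%), 30 of them higher and 36 lower, while in 614 a single probe set was called and 14 genes held calls in both directions. Whether mismatches between the oligonucleotides and the RNA of 1 subspecies contributed was not tested, and neither was a contribution of differing transcript forms.

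**Figure D2:**
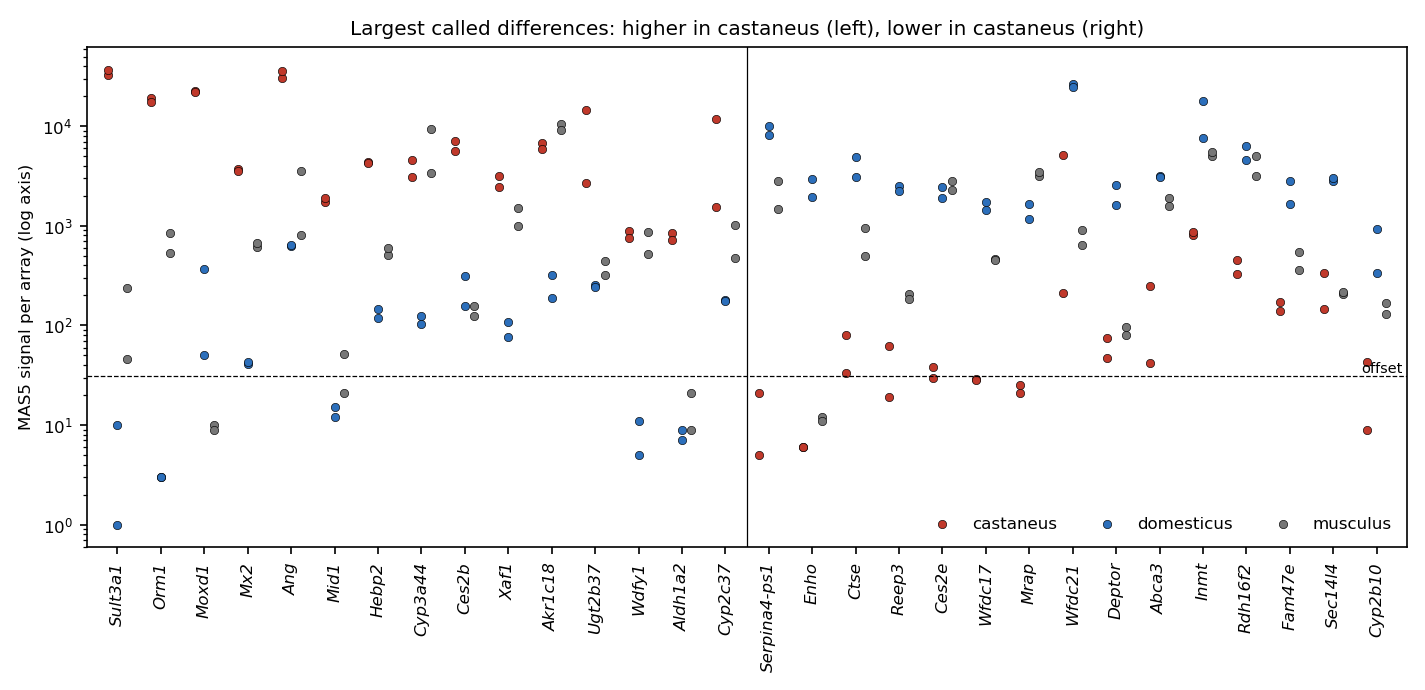
Signal on each array (log axis) of the 15 named genes with the largest called difference in each direction. Castaneus, domesticus and musculus are side by side with 2 points each. The dashed line is the offset of 31. The genes were chosen to have no overlap between castaneus and domesticus points. Musculus lies at the castaneus level in some genes (Akr1c18, Enho) and at the domesticus level in others (Ces2b, Ces2e).

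The genes whose probe sets all pointed one way give a set less tied to a single probe set. Higher in castaneus at every probe set were, among others, Ugt3a1, a glycosyltransferase (2198 and 5181 in castaneus against 290 and 278 in domesticus), Mme, the cell-surface peptidase neprilysin (1287 and 851 against 48 and 59), and Esr1, estrogen receptor alpha (1020 and 855 against 213 and 81). Me1, malic enzyme, which supplies NADPH for lipid synthesis, had 2914 and 2525 in castaneus against 859 and 707 in domesticus. Mgst3, Slc22a26, Ifi27, Defb1, Cldnd1 and Fdft1 complete the 10 named for this direction, with differences from 1.45 to 3.15 at their best probe set.

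Lower at every probe set were Sdr9c7, a short-chain dehydrogenase (188 and 245 in castaneus against 2118 and 3053 in domesticus), Rcan1, an inhibitor of calcineurin (1211 and 1816 against 5169 and 13870), and Cd59a, which blocks the final step of complement attack (586 and 444 against 3122 and 2464). F2r, the thrombin receptor, had 616 and 968 in castaneus against 4943 and 5467 in domesticus. Cyp2d22, Sult1d1, Saa1, Frzb, AI662270 and 1700001C19Rik complete the list, with differences from -3.19 to -1.84. The call for 1700001C19Rik was lost without domesticus replicate 1, and those for Fdft1 without domesticus replicate 1 or castaneus replicate 2.

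Interferon response genes were higher in castaneus as a group. Of 43 tested members, 20 (46.5%) were called higher and 0 lower in limma, with 26 higher and 0 lower at an unadjusted p under 0.05; over all genes 6.47% were called. The median difference of the list was 1.00, and 34 members had a positive difference. The antiviral GTPase Mx2 had signals of 3721 and 3577 in castaneus, 41 and 43 in domesticus and 619 and 673 in musculus (5.66 ± 0.40, adjusted p = 3.14e-06, limma). Its paralogue Mx1 had 515 and 641 in castaneus, 127 and 160 in domesticus and 87 and 64 in musculus. Both GTPases were higher in both castaneus males than in any male of the other subspecies.

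Ifit1, which binds viral RNA, had 2793 and 4172 in castaneus, against 404 and 363 in domesticus and 383 and 465 in musculus. Rsad2, which encodes the antiviral enzyme viperin, had 1512 and 2043 in castaneus, 279 and 327 in domesticus and 256 and 512 in musculus. Irf7, the transcription factor that amplifies interferon production, had 2021 and 2355 in castaneus, 662 and 688 in domesticus and 561 and 494 in musculus. In these genes domesticus and musculus lay close together and castaneus lay above both.

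The interferon-inducible GTPases Igtp (10581 and 8202 in castaneus against 2242 and 2802 in domesticus) and Irgm2 (3951 and 4291 against 1056 and 1058), the RNA sensor regulator Dhx58 (812 and 931 against 293 and 247) and the nucleic acid sensor Zbp1 (743 and 658 against 166 and 109) were also called. Ifi27 had 16366 and 17664 in castaneus and 3967 and 3619 in domesticus, and musculus was lower still, at 357 and 305. Xaf1, a cell death regulator, had 2439 and 3144 in castaneus, 76 and 109 in domesticus and 1505 and 995 in musculus, which was called nearer to castaneus. Its other probe set was not called and had the opposite sign (-1.07). Lgals3bp, a secreted glycoprotein, had 4047 and 2723 in castaneus, 1297 and 1762 in domesticus and 6917 and 5446 in musculus. In these 2 genes musculus did not share the low level of domesticus.

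Not every member was called. Oas1a had 3432 and 3508 in castaneus against 851 and 652 in domesticus, with no overlap, and an adjusted p of 0.119 (limma), and its F1 difference was -0.02. Irf1 had 1455 and 1544 in castaneus against 1862 and 2005 in domesticus (adjusted p = 0.566). With castaneus and domesticus each set against musculus, which both share, the list medians were 1.16 for castaneus and 0.23 for domesticus.

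Among the F1 livers, castaneus crosses against domesticus crosses, 9 interferon genes were called higher and 0 lower (19 and 0 at an unadjusted p under 0.05), with a median of 0.41; over all genes, 3.3% were called in that contrast. With quantile normalization the parental count was 21 called higher and 0 lower. The parental median was 0.87 without castaneus replicate 1 and 1.09 without castaneus replicate 2. It was 0.92 without domesticus replicate 1 and 1.02 without domesticus replicate 2. The other alternatives of processing were not applied to the gene lists. In bulk liver, fewer cells of a type and less RNA per cell cannot be told apart, and markers of immune cells are given next.

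Macrophage and Kupffer cell markers, 17 measured genes, summed to 31352 and 35514 in castaneus, against 21155 and 23307 in domesticus and 14242 and 14533 in musculus. Most of that gap was 1 gene: Mpeg1, which encodes a pore-forming protein of macrophages, had 11409 and 11377 in castaneus against 2397 and 2017 in domesticus. Without Mpeg1 the sums were 19943 and 24137 in castaneus and 18758 and 21290 in domesticus. The macrophage genes Lyz2 (405 and 257 in castaneus against 1000 and 1291 in domesticus) and C1qb (444 and 372 against 1231 and 1330) were called lower. The other probe sets of C1qb gave -4.00 (called) and -0.13 (not called). The T and NK cell list (sums of 1709 and 1342 in castaneus, 1411 and 1561 in domesticus) and the B and plasma cell list (7484 and 8108 against 8086 and 10414) had no call, with 0 higher and 1 lower and with 0 either way at an unadjusted p under 0.05. The neutrophil and myeloid markers, 11 measured genes, summed to 2695 and 3263 in castaneus and to 1380 and 1850 in domesticus. Of 8 tested, Lcn2 was called higher and 0 were lower (2 and 0 at an unadjusted p under 0.05), with a median of 0.46; Csf3r, a granulocyte growth factor receptor, had 310 and 384 in castaneus against 42 and 207 in domesticus and was not called. MHC class II genes, of antigen-presenting cells, summed to 6555 and 9156 in castaneus against 8250 and 11358 in domesticus, with 0 of 7 called in either direction (0 higher and 1 lower at an unadjusted p under 0.05) and a median of -0.28. The macrophage and neutrophil lists had 18.8% and 12.5% of their tested genes called, beside 6.47% over all genes. The part of cell composition in the interferon difference was not tested.

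**Figure D3:**
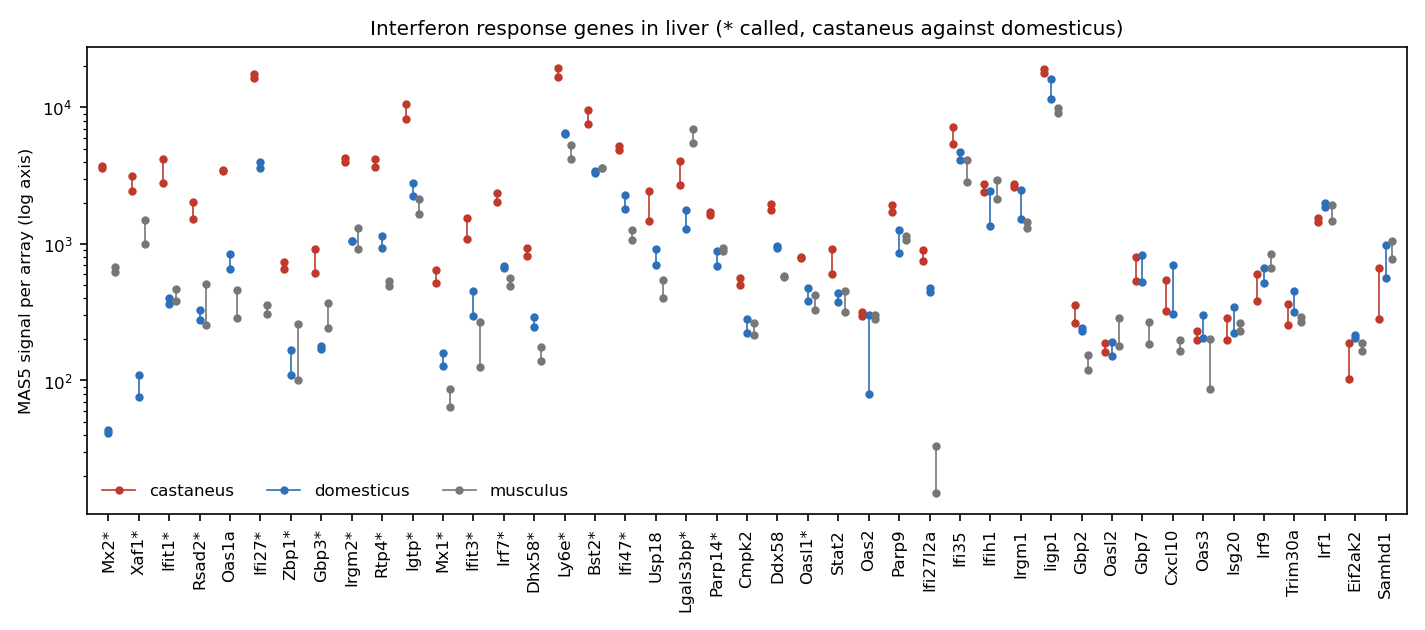
Signal on each array (log axis) of the 43 interferon response genes in castaneus, domesticus and musculus liver, 2 points joined per subspecies, ordered by the castaneus minus domesticus difference; an asterisk marks the 20 called genes. Castaneus lies above domesticus with no overlap in the called genes, and musculus lies far above domesticus in Mx2, Xaf1 and Lgals3bp and near or below it in most of the others.

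Antigen presentation by MHC class I is also induced by interferon. Of 16 tested members 2 were called higher and 0 lower (6 and 2 at an unadjusted p under 0.05), with a median of 0.36. The share called was 12.5%, beside 6.47% over all genes. Without castaneus replicate 2 there were 1 higher and 2 lower (median 0.13), and without castaneus replicate 1 there were 1 and 1. Psmb9, a subunit of the immunoproteasome, had 2835 and 3450 in castaneus against 945 and 954 in domesticus. H2-K1 was called at its brightest probe set (18039 and 20908 against 6268 and 7134), while its other 3 gave 7.65 (called higher), -3.41 (called lower) and -0.10 (not called), and the F1 difference of the brightest was 0.02. No direction is given for this gene, whose sequence varies widely among mice. H2-Q10 differed between the castaneus males, at 13 and 15972, against 23684 and 26046 in domesticus, and was not called. B2m, the shared light chain, had 32079 and 32181 in castaneus and 30608 and 33403 in domesticus. In the F1 livers, 1 gene of this list was called higher in the castaneus crosses and 0 lower, with a median of -0.02. In that contrast 3.3% of all genes were called.

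Enzymes that modify foreign compounds and steroids held calls in both directions in each of 6 families, with family medians from -0.21 to 0.16. Over all genes 3.42% were called higher and 3.05% lower, 6.47% in all. Of 31 tested cytochrome P450 genes of families 2 and 3, 3 were called higher and 4 lower (22.6%), with a median of 0.03; 2 were higher without castaneus replicate 2 or either domesticus replicate. Cyp3a44 had 4567 and 3075 in castaneus, 125 and 103 in domesticus and 9385 and 3429 in musculus. Cyp2c37 had 1551 and 11838 in castaneus, against 179 and 177 in domesticus, so the 2 castaneus males differed widely while both exceeded domesticus. Cyp2c54 was called higher by 1.02.

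The P450 genes lower in castaneus were Cyp2d22 (464 and 407 against 3543 and 3241 in domesticus), Cyp2j9 (21 and 17 against 305 and 255), Cyp2u1 (65 and 131 against 452 and 658) and Cyp2b9 (128 and 72 against 432 and 685). Cyp2b10, an enzyme induced by phenobarbital, was called lower at a probe set with 9 and 43 in castaneus against 938 and 334 in domesticus. Its other probe sets gave -1.93 (called) and -1.47 (not called), and the gene is not among those counted lower in the list. The abundant Cyp2e1 (30493 and 34559 against 27932 and 36267) and Cyp3a11 (27664 and 29016 against 23768 and 26991) were not called, with differences of 0.03 ± 0.23 and 0.16 ± 0.18.

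Conjugating enzymes showed the same mix of directions within a family. Against the increase of Sult3a1, the sulfotransferases Sult1d1 (570 and 1661 in castaneus, 11945 and 7014 in domesticus) and Sult1b1 (204 and 272 against 1060 and 895) were lower, as was Papss2, which makes the sulfate donor (2670 and 1360 against 7165 and 3549). In all, 1 member was called higher and 3 lower of 11 (36.4%), with 2 lower without castaneus replicate 2 or domesticus replicate 1, and 2 higher without domesticus replicate 1. Of 12 UDP-glucuronosyltransferases, 4 were called higher (Ugt2b37, Ugt2b38, Ugt3a1 and Ugt2b35) and 1 lower (Ugt2a3), 41.7% in all. Without castaneus replicate 1 or domesticus replicate 1, 2 were called higher and 0 lower, and without castaneus replicate 2 there were 3 and 0. Ugt2b38 lost its call without castaneus replicate 1 or domesticus replicate 1, and Ugt2a3 without these or castaneus replicate 2. Ugt2b37 had 14714 and 2680 in castaneus against 256 and 245 in domesticus.

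Of 20 glutathione S-transferases, 2 were called higher and 3 lower (25%); 1 was higher without castaneus replicate 2. Gstz1, which also acts in tyrosine breakdown, had 5226 and 6218 in castaneus against 14169 and 13917 in domesticus. Mgst3 had 1883 and 3732 against 569 and 719. Among 12 carboxylesterases, which split ester bonds, 1 was called higher and 2 lower (25%), also with any 1 of the 4 arrays left out. Ces2b had 5644 and 7132 in castaneus, 316 and 158 in domesticus and 124 and 155 in musculus. Ces2e, of the same cluster, had 30 and 38 in castaneus, 1893 and 2436 in domesticus and 2294 and 2838 in musculus. The 2 esterases moved in opposite directions, and for both of them musculus lay at the domesticus level. Cross-hybridisation between close relatives such as these was not tested.

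The aldo-keto reductase Akr1c18, which inactivates progesterone, had 6722 and 5851 in castaneus, 189 and 324 in domesticus and 10462 and 9232 in musculus. Its relative Akr1c12 had 1718 and 1213 in castaneus, 8720 and 4669 in domesticus and 452 and 536 in musculus. Here castaneus and musculus were on the same side and domesticus lay apart. Of 22 aldo-keto and hydroxysteroid reductases tested, 2 were called higher and 1 lower (13.6%).

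Genes whose liver level depends on sex in mice were called often, in both directions; all animals here were males. Of 20 tested genes known as female-biased, 5 were called higher and 3 lower (40%; median 0.58). Besides Sult3a1 and Cyp3a44, Hao2, a peroxisomal oxidase, had 2939 and 985 in castaneus against 57 and 72 in domesticus, with musculus at 3638 and 806, and its call was lost without castaneus replicate 1 or either domesticus replicate. Cyp39a1, a hydroxylase of oxysterols, was lower, at 90 and 99 in castaneus against 1625 and 1040 in domesticus.

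Of 27 tested male-biased genes, 6 were called higher and 3 lower (33.3%; median 0.33). Moxd1 was the largest. Socs2, which growth hormone induces and which limits growth hormone signalling, had 5174 and 2113 in castaneus, against 443 and 199 in domesticus and 1969 and 1305 in musculus, and lost its call without castaneus replicate 1 or domesticus replicate 2. Keg1, a glycine N-acyltransferase-like gene, had 21107 and 15560 in castaneus against 6098 and 5989 in domesticus. The organic anion transporter Slco1a1 was lower, with 4593 and 4120 against 14302 and 10993. Ntrk2, a neurotrophin receptor in the female-biased list, had 668 and 567 in castaneus, 60 and 35 in domesticus and 1657 and 1661 in musculus. Over all genes 6.47% were called, and both lists held calls in both directions. Without domesticus replicate 2, the male-biased list had 3 called higher and 2 lower, without domesticus replicate 1 it had 4 and 2, without castaneus replicate 1 it had 4 and 4 and without castaneus replicate 2 it had 4 and 2. The female-biased list kept 4 or 5 called higher and 2 or 3 lower when any 1 of these 4 arrays was left out, but its median was 0.23 without castaneus replicate 2 and 0.36 without domesticus replicate 2. The median of the male-biased list was 0.19 without domesticus replicate 1. In the F1 livers, castaneus crosses against domesticus crosses, 3 female-biased genes were called higher and 3 lower, with a median of 0.01. The male-biased list had 4 called higher and 2 lower in the F1, with a median of 0.02. In that contrast 3.3% of all genes were called.

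**Figure D4:**
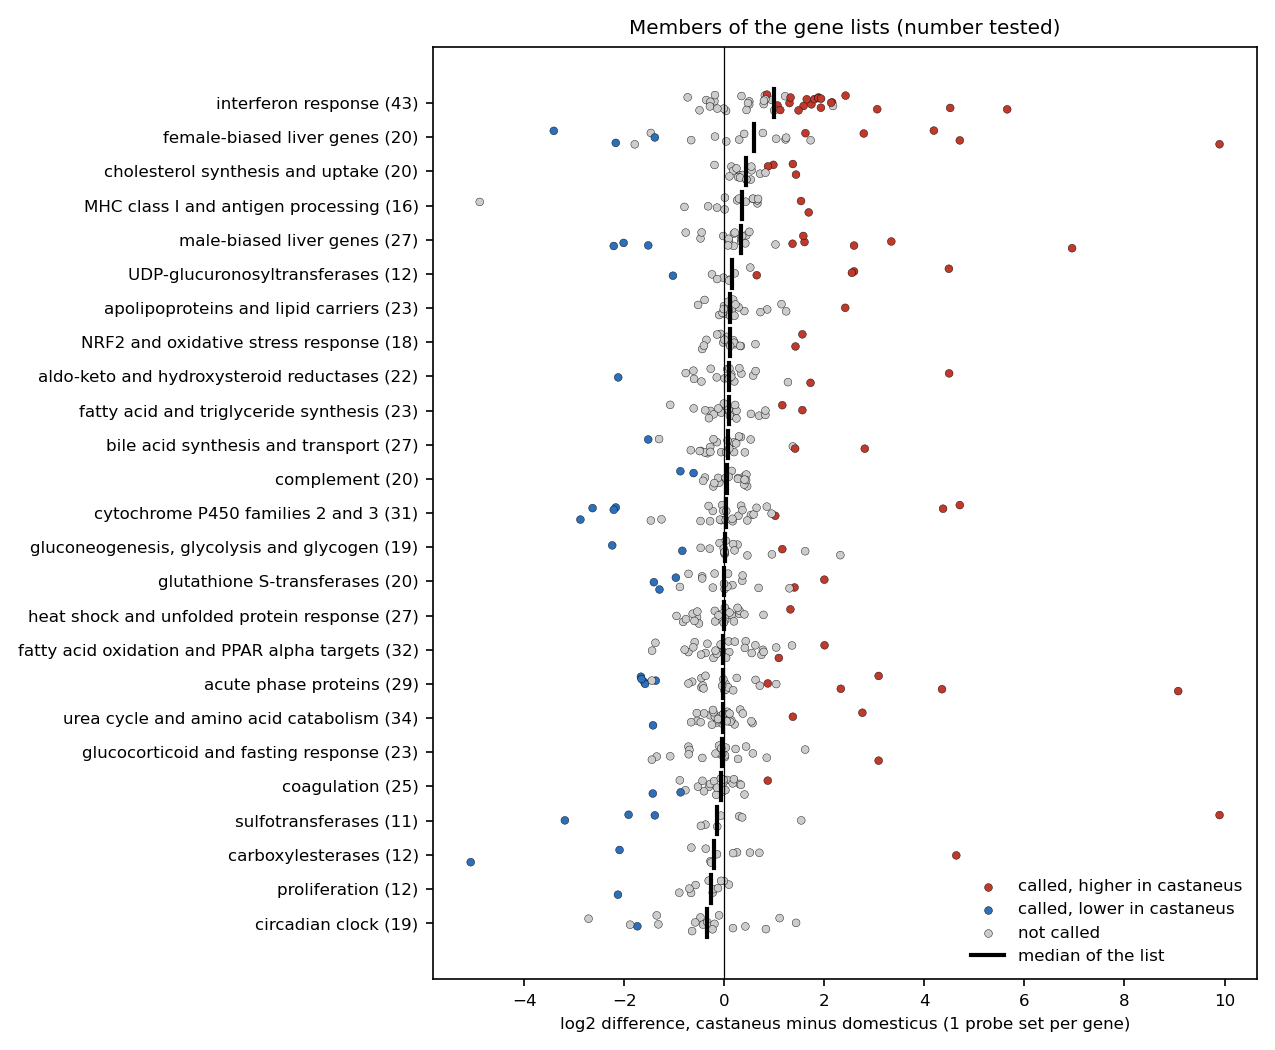
Castaneus minus domesticus log2 difference (horizontal axis) of each tested member of the gene lists, 1 probe set per gene, with the number tested in brackets, red for called higher, blue for called lower and grey for not called; the black bar is the median. The interferon list has the highest median, at 1.00, while the families of metabolising enzymes hold both red and blue points around 0.

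Plasma proteins of the acute phase held calls in both directions. Of 29 tested, 5 were called higher and 5 lower (34.5%, against 6.47% over all genes), with a median of -0.02. The serum amyloid genes were lower in castaneus: Saa1 had 8924 and 6131 against 19107 and 26403 in domesticus at its brightest probe set, Saa3 had 2006 and 1578 against 4463 and 4844, and Saa4 had 5352 and 6425 against 14637 and 21239. Saa2, close in sequence to Saa1, was also lower (-1.67), and its call was lost without castaneus replicate 2 or domesticus replicate 2. Apcs, serum amyloid P component, had 12648 and 4069 in castaneus against 21668 and 23735 in domesticus.

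Higher in castaneus were Orm1 and Orm3 of the orosomucoid family, Lcn2, which binds bacterial iron carriers (850 and 1060 against 85 and 84), and Fgb, the beta chain of fibrinogen (35917 and 38560 against 17501 and 23687). Hamp2, a relative of the iron hormone hepcidin, had 22208 and 28963 in castaneus, against 603 and 2407 in domesticus and 34263 and 30323 in musculus. Calls for Orm3 and Fgb were lost when 1 of 3 of the 4 parental arrays was left out, in Orm3 all but domesticus replicate 1 and in Fgb all but domesticus replicate 2. In the list as a whole, without castaneus replicate 2 there were 3 called higher and 3 lower, and without domesticus replicate 1 there were 4 and 3.

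In the coagulation list, with 1 of 25 called higher and 2 lower, F5, clotting factor V, was lower, at 2849 and 3054 in castaneus against 8631 and 7411 in domesticus. Complement had 0 of 20 called higher and 2 lower (2 and 4 at an unadjusted p under 0.05), with C2 and Mbl2 as the called members, both under 1 in size on the log2 scale. These lists had 12% and 10% called, beside 6.47% over all genes. In complement, 1 was lower without castaneus replicate 2 and 0 without any 1 of the other 3 parental arrays; C2 lost its call without castaneus replicate 1 or either domesticus replicate. In coagulation, 0 were higher without either castaneus replicate or domesticus replicate 1, and 1 was lower without castaneus replicate 2. Abundant hepatocyte transcripts such as Alb (30075 and 26011 in castaneus, 25021 and 24840 in domesticus) and Apoa1 (42785 and 40566, against 37912 and 40864) were not called, with differences of 0.17 ± 0.22 and 0.08 ± 0.19.

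Cholesterol synthesis genes had small positive differences. Of 20 tested, 19 were positive, with a median of 0.44, and 4 (20%) were called higher and 0 lower (7 and 0 at an unadjusted p under 0.05 in limma). Over all genes 6.47% were called, and 6950 of 13421 had a positive difference. Fdft1, squalene synthase, had 10109 and 13002 in castaneus against 3689 and 4710 in domesticus at its best probe set. Dhcr7, which makes the last step to cholesterol, had 6995 and 10332 against 4853 and 4408. Cyp51 and Hsd17b7 were the other called members, at 0.98 and 1.37, and the median of the other 3 probe sets of Hsd17b7 was -0.06. The other probe sets of Cyp51 gave 0.27 and -0.07, neither called. Castaneus replicate 2 had the higher signal of the castaneus pair for all 4. These calls depended on single arrays: 3 were left without castaneus replicate 1, 0 without castaneus replicate 2, 1 without domesticus replicate 1 and 2 without domesticus replicate 2, and the medians were 0.69, 0.30, 0.41 and 0.50. In the F1 livers, 5 genes of the list were called higher in the castaneus crosses and 0 lower (14 and 0 at an unadjusted p under 0.05), with a median of 0.56. In that contrast 3.3% of all genes were called.

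Other lists of lipid metabolism had 4.35% to 11.1% of their members called, beside 6.47% over all genes. Fatty acid and triglyceride synthesis had 2 of 23 called higher, Me1 and Pklr, and 0 lower (3 and 1 at an unadjusted p under 0.05); 0 were higher without castaneus replicate 1 and 1 without any 1 of the other 3. The list of fatty acid oxidation genes and PPAR alpha targets had 2 of 32 higher, Hadhb and Vnn1, and 0 lower. At an unadjusted p under 0.05 in limma there were 6 and 6. The other 2 probe sets of Hadhb had a median of 0.17. Without castaneus replicate 2 that list had 1 higher and 5 lower, with a median of -0.26; without castaneus replicate 1 it had 3 higher, and without either domesticus replicate 1, with 0 lower. Bile acid genes had 2 of 27 higher and 1 lower. Without castaneus replicate 2 they had 0 higher and 3 lower, without domesticus replicate 2 they had 0 and 1, and without castaneus replicate 1 they had 1 and 1. Slco1a4, an uptake transporter, had 623 and 1120 in castaneus against 134 and 62 in domesticus, and lost its call without castaneus replicate 2 or domesticus replicate 2. Cyp7a1, the first enzyme of bile acid synthesis, had 6119 and 6560 against 3582 and 1647, with an adjusted p of 0.102. Apolipoproteins and lipid carriers had 1 of 23 called, Fabp7, higher by 2.42, and none lower (4 and 2 at an unadjusted p under 0.05); 0 were called without castaneus replicate 2 or domesticus replicate 1.

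In the glycolysis and gluconeogenesis list 1 of 19 was higher and 2 were lower, of which Pfkl, liver phosphofructokinase, had 389 and 391 in castaneus against 1619 and 2368 in domesticus. The urea cycle and amino acid list had 2 of 34 higher, Ass1 and Kynu, and Got1 lower. Gclc and Me1 were the 2 called members of 18 in the oxidative stress list, both higher. That list had 0 called without castaneus replicate 1, and 1 without castaneus replicate 2 or domesticus replicate 2; without either castaneus replicate the dimmer probe set of Gclc, which was not called (-0.15), became its brightest, while the probe set named here stayed called without any 1 array. Hspb1, a small heat shock protein, was the called member of 27 in the heat shock list, with 1344 and 1373 in castaneus against 519 and 531 in domesticus. The share called in these 4 lists lay between 3.7% and 15.8%, beside 6.47% over all genes. The call for Hspb1 was lost without castaneus replicate 2, and that for Got1 without either castaneus replicate or domesticus replicate 1. Pfkl stayed called with any 1 of the 4 arrays left out. Calls for Pklr, Slc37a4, Vnn1, Mbl2 and Ugt2b35 were each lost when any 1 of the 4 parental arrays was left out.

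Clock genes varied within the subspecies as well as between them. Of 19 tested, Per2 was called, lower in castaneus, at 238 and 372 against 1190 and 957 in domesticus, and 0 were called higher (0 higher and 4 lower at an unadjusted p under 0.05). The share called, 5.26%, was below the 6.47% over all genes. Arntl had 1040 and 527 in castaneus, against 80 and 705 in domesticus, and Dbp ranged in musculus from 292 to 4042. Without domesticus replicate 1, in which Dbp was high and Arntl low, none was called; without castaneus replicate 1 none was called either, and without domesticus replicate 2, 3 were called lower and 1 higher. The time of day of dissection is not given in the sources used here.

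Of 3 tested erythroid genes, 2 were called lower in castaneus (66.7%, beside 6.47% over all genes), and the other differed by -0.15. Alas2, the first enzyme of heme synthesis in red cell precursors, had 474 and 432 in castaneus against 1219 and 1260 in domesticus, and stayed called with any 1 array left out. Klf1, a transcription factor of red cells, was called lower (-1.05), and its call was lost without castaneus replicate 1 or domesticus replicate 1, with quantile normalization and with the replicate block. The erythroid sums over 6 measured genes were 759 and 988 in castaneus against 2125 and 1770 in domesticus. Tk1, the thymidine kinase of dividing cells, had 344 and 380 in castaneus against 2567 and 1099 in domesticus, the called member of 12 proliferation genes, whose median was -0.27. Reln, a matrix protein of stellate cells, was lower (-0.93), the called member of 14, and lost its call without either castaneus replicate or domesticus replicate 1. The shares called were 8.33% for proliferation and 7.14% for stellate cells, near the 6.47% over all genes. Endothelial and bile duct lists had 0 calls in either direction in limma, with 1 higher and 0 lower, and 0 in either, at an unadjusted p under 0.05. Exocrine pancreas markers summed to 2441 and 3116 in castaneus and to 3293 and 5314 in domesticus, far below the highest sum among the other liver arrays, 119078 in an F1.

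Musculus was placed between the pair by a contrast of musculus with the mean of castaneus and domesticus, which is independent of their difference with equal group sizes. That contrast was called in 1766 probe sets (6.54%). Among the 1655 calls between castaneus and domesticus, musculus was called nearer to domesticus in 243 (14.7%) and nearer to castaneus in 237 (14.3%), and was not called nearer to either in 1175 (71%). Where castaneus thus lay apart, it was higher in 101 and lower in 142; where domesticus lay apart, castaneus was higher in 134 and lower in 103. On a scale with 0 at the domesticus level and 1 at the castaneus level, the median position of musculus was 0.473, with quartiles of 0.111 and 0.88. Without musculus replicate 1 the counts nearer domesticus and nearer castaneus were 107 and 102, and without musculus replicate 2 they were 137 each. Without domesticus replicate 1 they were 147 and 184, without domesticus replicate 2 they were 150 and 202, without castaneus replicate 1 they were 199 and 134 and without castaneus replicate 2 they were 216 and 147. Position says which of the pair lay nearer to musculus, not that the 2 shared a level, and not which level is ancestral. In Mrap, for instance, musculus was called nearer to domesticus but also differed from it (adjusted p = 0.00467, limma).

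Castaneus lay apart for Sult3a1, Moxd1, Mid1, Ces2e and Mrap, which had the largest differences of that class. Domesticus lay apart for Enho, Cyp3a44, Deptor, Xaf1 and Akr1c18. In 66 probe sets musculus was called outside the range of both, above in 40 and below in 26. Car2, a carbonic anhydrase, had 9409 and 5761 in castaneus, 570 and 407 in domesticus and 190 and 149 in musculus. Miox, an oxygenase that breaks down inositol, had 1498 and 1511 in castaneus, 211 and 175 in domesticus and 3218 and 3333 in musculus. In 33 probe sets, Orm1 and Mx2 among them, musculus was called different from both and lay between.

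The F1 livers gave the same direction for most differences. Each F1 has 1 musculus parent, so a castaneus cross and a domesticus cross differ by 1 set of castaneus or domesticus chromosomes. Of the 1655 called probe sets, 1585 (95.8%) had the same sign in castaneus crosses minus domesticus crosses, against 69.3% of all tested, and 1415 had it in both kinds of F1, those with a musculus mother and those with a musculus father. In this contrast 932 probe sets were called over all tested (3.45%). Of the 1655, 577 (34.9%) were called in the parental direction and 0 in the opposite one by limma, with 2 opposite at an unadjusted p under 0.05. The median ratio of the F1 difference to the parental one was 0.424. In the F1 with a musculus mother, whose males were of the same age, 1540 (93.1%) had the parental sign and the median ratio was 0.448. A difference in hybridisation to a probe set would be present in both parents and F1, and its part was not tested.

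Leaving out 1 F1 array gave between 337 and 731 calls, and the number of parental calls also called was 277 without domesticus x musculus replicate 2, 315 without musculus x domesticus replicate 1, 353 without domesticus x musculus replicate 1, 367 without castaneus x musculus replicate 1, 378 without musculus x domesticus replicate 2 and 381 without musculus x castaneus replicate 2.

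Single genes ranged from a full parental difference in the F1 to almost none. Sult3a1 had 30081, 22628, 24618 and 29252 in the castaneus crosses and 7, 3, 5 and 13 in the domesticus crosses, a difference of 9.45 ± 0.30. Aldh1a2 (719, 950, 776 and 738 against 8, 4, 16 and 4) and Ces2b (4896, 4109, 4716 and 4724 against 107, 184, 24 and 301) also kept their parental size. Enho had 10, 22, 8 and 6 in the castaneus crosses against 1396, 1515, 881 and 1485 in the domesticus crosses. In all of these genes musculus, a parent of every F1, was low. Its signals were 240 and 46 for Sult3a1, 21 and 9 for Aldh1a2, 124 and 155 for Ces2b and 12 and 11 for Enho.

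At the other end, Mrap had 2288, 1780, 1782 and 1563 in the castaneus crosses and 2552, 2439, 1471 and 2038 in the domesticus crosses, a difference of -0.18 ± 0.15 (adjusted p = 0.636, limma). Akr1c18 had 9878, 8841, 5953 and 7599 against 4589, 4587, 4987 and 5603, a difference of 0.68, beside 4.50 in the parents. For Ces2e the F1 difference was -0.72, against -5.07 in the parents. In Mrap and Ces2e every F1 array was far above castaneus, which is a parent of the castaneus crosses alone. For Akr1c18 every F1 array was far above domesticus, a parent of the domesticus crosses alone. Musculus, a parent of every F1, was high in all of them. Its signals were 3144 and 3481 for Mrap, 10462 and 9232 for Akr1c18 and 2294 and 2838 for Ces2e. The part of the musculus level in the size of the F1 differences was not tested.

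**Figure D5:**
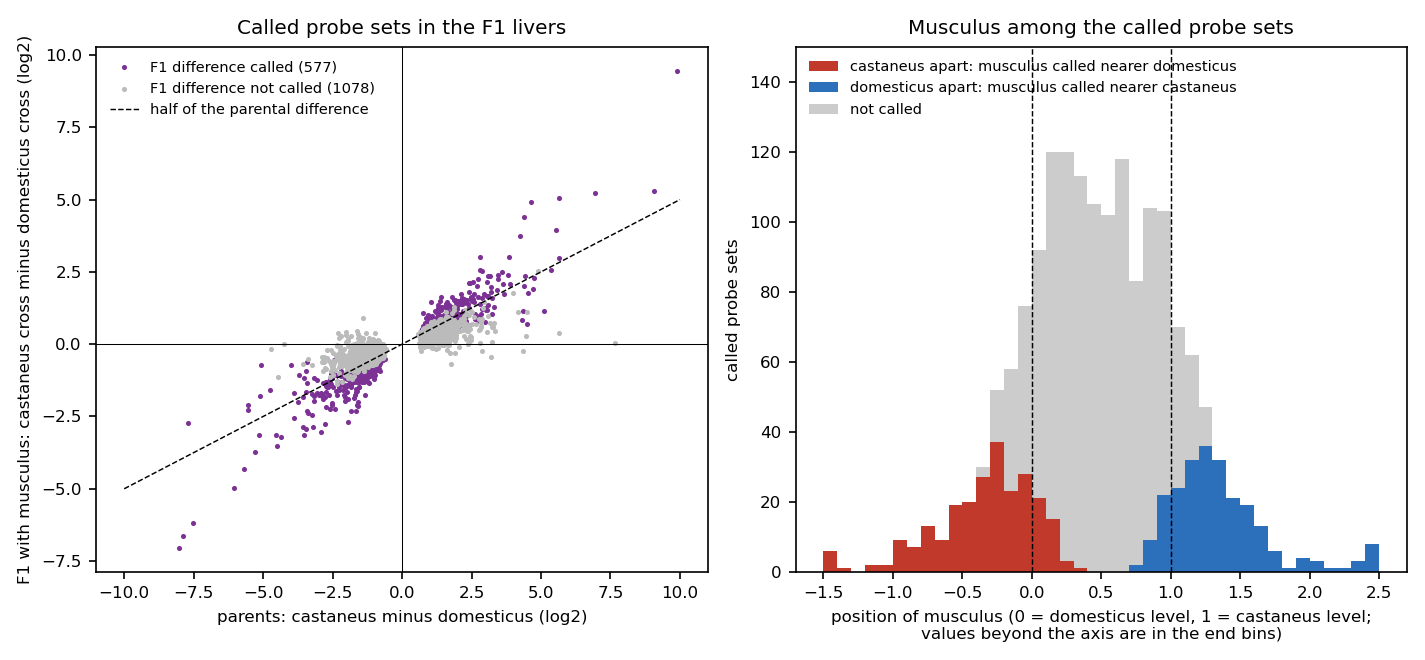
Left, F1 difference (castaneus crosses minus domesticus crosses, 4 arrays each) against the parental difference of the 1655 called probe sets, with 577 also called in the F1 in purple and a dashed line at 0.5 times the parental size. Right, number of called probe sets by the position of musculus, with the 243 called nearer domesticus in red and the 237 called nearer castaneus in blue.

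The same males gave brain and testis arrays. Of the 1181 liver calls whose probe set was tested in all 3 tissues, 689 (58.3%) differed in liver from the mean difference of brain and testis, against 1970 of 20178 tested (9.76%); since these probe sets were selected on the liver difference, the first share is a description. In 221 of the 1181 the difference was called with the same sign in brain and in testis too, and in 673 it was called in neither; over all 20178, 4.81% were called in brain and 9.18% in testis. Car2 had a brain difference of 0.02 and a testis difference of 0.55 beside 3.85 in liver. F2r was lower in castaneus in all 3 tissues, with differences of -2.70 in liver, -1.71 in brain and -2.14 in testis. Mpeg1 was higher in castaneus liver and lower in castaneus testis (-2.79). The count of 1970 was 1179 without castaneus replicate 1, 1296 without castaneus replicate 2 and 1217 without domesticus replicate 1.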

How the data were processed

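The authors deposited 1 linear intensity (signal) for each probe set on each array, computed with MAS5 per the submitters' processing notes, without a stated version. Detection calls were not used here. MAS5 subtracts mismatch-probe signal, and the trimmed means of the liver arrays show scaling to a shared target, which does not equalise the arrays' distributions. Of 45037 probe sets, 34945 had exactly 1 symbol in the platform annotation, 932 had several and 9160 none. No genome was used, so no positions or promoter sequences are given, and a planned motif search was not run.

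Tests used log2(signal + 31), 31 being the 20th percentile of all values, and probe sets below the 40th percentile of mean level in liver (mean signal 82.4) were left out, which left 27022. limma 3.58.1 in R 4.3.3 was fitted to the 14 liver arrays (intensity trend, 7 residual degrees of freedom), with two-sided p-values adjusted by Benjamini-Hochberg over all tested probe sets. The tissue contrast used all 42 arrays and 20178 probe sets that passed in each tissue, with the animal as a random block (correlation 0.293). An exact permutation of 2 against 2 arrays cannot go below p = 0.333. The number of arrays limits the precision. In list counts with an array left out, the brightest probe set of each gene was chosen again.

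Named genes have 1 symbol, no _x_at probe set, a call and no overlap between the 4 arrays, and are represented by the probe set with the smallest p: the 15 largest differences per direction, 10 per direction with every probe set called alike, 5 per position of musculus, and members of the gene lists at their brightest probe set (here _x_at probe sets were allowed). Members and lists were chosen with earlier results of these data known. Lists described member by member also name members that were not called, and the examples among them, such as Mt1 and Dbp, were chosen after their values were seen.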

Additional observations from a re-analysis of the deposited data

Results flagged for a closer look

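The difference between castaneus and domesticus was compared between liver and the mean of brain and testis by an interaction in limma over all 42 arrays. Of 113 named probe sets, 51 were tested in all tissues and 40 of them had a called interaction. They were named for their liver difference, so a larger size in liver was favoured by that choice. Values below are the liver difference minus the mean difference of brain and testis, on the log2 scale.

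The difference was more positive in liver for Aldh1a2 (4.29), Mpeg1 (4.11), Hebp2 (3.75), Mme (3.71), Car2 (3.56), Ntrk2 (3.12), Xaf1 (2.94), Socs2 (2.82), Slco1a4 (2.63), Fabp7 (1.97), Rsad2 (1.94), Mgst3 (1.65), Ifi27 (1.49), Akr1e1 (1.44), Hspb1 (1.40), Pklr (1.31), Hsd17b7 (1.21) and Cyp51 (0.91). Both probe sets of Me1 (2.22 and 1.86) and of Fdft1 (1.5 and 1.46) were among them. Mpeg1 had opposite signs, at 2.36 in liver, -0.72 in brain and -2.79 in testis.

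It was more negative in liver for Enho (-6.56), Abca3 (-4.96), Inmt (-3.83), Cyp2d22 (-2.72), Rcan1 (-2.53), Got1 (-2.30), 1700001C19Rik (-1.82), Per2 (-1.81), Gstz1 (-1.70), Gstm6 (-1.63), Pfkl (-1.36), Frzb (-1.28), Cd59a (-1.16), Reln (-1.01), H2-K1 (-0.94), Slc37a4 (-0.85), Pros1 (-0.84) and F2r (-0.77). The value of H2-K1 is that of 1 probe set, and its probe sets disagree in direction.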

How the results depend on the processing

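The 1655 calls (772 higher, 883 lower) became 882 (429 and 453) over means of a gene's probe sets, of which there are fewer, 1002 (463 and 539) in a fit of the 6 parental arrays and 742 (359 and 383) in one of the 4, and 975 to 1180 (397 to 572 and 485 to 637) with 1 array left out. The 1766 musculus calls, with 243 nearer domesticus and 237 nearer castaneus, became 897 (128 and 114) over gene means, 1121 (141 and 135) with 6 arrays and 628 to 1604 (107 to 216 and 102 to 202) with 1 left out. The 932 F1 calls, with 1585 parental signs and 577 shared calls, became 407 (853 and 286) over gene means, 307 (235 shared) in F1 of musculus mothers, 203 (164 shared) in F1 of musculus fathers and 337 to 731 (1367 to 1563 and 277 to 460) with 1 left out. The 1970 tissue calls (906 and 1064) became 972 (458 and 514) without the animal block, 1089 (556 and 533) against brain alone and 1179 to 1477 (527 to 686 and 643 to 791) with 1 left out. Quantile normalization (1917), offsets of 8 (1628) and 100 (1708), no filter (1610) and no intensity trend (1376) kept the parental count within 1.5 times. Replicate numbers pair no animals: with the replicate block the counts were 1633, 1729, 886 and 1937, and deviations of same-numbered arrays correlated at -0.281 to 0.297, over 0.1 in 10 of 21 pairs of genotypes. Of 113 named probe sets 73 were called under every alternative, and 0 of 1575 values reversed. The named probe sets were chosen as called and without overlap between castaneus and domesticus arrays. Leaving out an array therefore could not reverse their sign, and the 0 reversals largely follow from that choice. Where not due to fewer arrays or features, the cause was not tested.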
